A study of Homo sapiens with 4 samples.

Results

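EPH receptors are tyrosine kinases of the cell surface, and ephrins are the membrane-bound ligands they meet on neighbouring cells. Here 10 genes of these families were chosen by name, the 5 receptors EPHA2, EPHA4, EPHB2, EPHB3 and EPHB4 and the 5 ligands EFNA1, EFNA4, EFNA5, EFNB1 and EFNB2. All 10 were found among the 19475 gene symbols of the deposited table. Where a symbol had several transcripts, the one with the largest mean FPKM over all 4 libraries stands for it. The RNA came from the ovarian cancer cell line SKOV3, an established human line, and the study compared cells on a tissue culture plate (TCP) with tumor spheroids grown on plates coated with polymer X, a polymer thin film. The TCP group held 2 libraries labelled day 0, and the polymer X group held 2 libraries labelled day 8. The labels name no genetic change and no drug in either group, and do not say whether the libraries of a group came from separate cultures. The p-values therefore measure the spread between these libraries, which may be technical. Substrate and culture time changed together and cannot be told apart. In the methods, fetal bovine serum was used to maintain SKOV3 and serum replacement to grow spheroids, whereas a single protocol with serum replacement stands in the labels of all 4 libraries, so the medium of the TCP cells is uncertain.

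An ephrin that binds an EPH receptor starts a forward signal in the cell that carries the receptor, and can start a reverse signal in the cell that carries the ligand. A-type ephrins are held by a lipid anchor and bind mainly EPHA receptors, whereas B-type ephrins cross the membrane and bind mainly EPHB receptors and EPHA4. The outcome is most often a change in adhesion, cell shape or movement, and EPHA2 is often abundant in epithelial cancers, those of the ovary included.

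Levels are given as FPKM, the tags sequenced per length of transcript and per depth of library, a scale meant for comparison between genes and between libraries. The FPKM of all symbols still summed to 313837 and 303382 on TCP and to 278079 and 271696 on polymer X. Other scalings are among the alternatives. The steps between low values give the depth of each library in tags. TCP replicate 1 had 38402000 and replicate 2 had 44914000, and polymer X replicate 1 had 40028000 and replicate 2 had 40683000. The cells were checked against markers of cell types. Of 9 genes listed for epithelium and SKOV3, 6 reached an FPKM of 1 in at least 1 library, and the list summed to 640 and 654 FPKM on TCP and to 1258 and 1207 on polymer X. Its most abundant gene was KRT8 on TCP and ERBB2 on polymer X. ERBB2 went from 198 and 206 FPKM on TCP to 913 and 860 on polymer X and PAX8 from 48.8 and 50.5 to 102.1 and 107.7, whereas the keratins KRT8 (262 and 269 to 146 and 143), KRT18 (123 and 121 to 89.3 and 89.6) and KRT7 (8.33 and 7.57 to 4.57 and 4.04) were lower. EPCAM (0.168 and 0.104 to 1.39 and 1.33), KRT19 (0.338 and 0.441 to 0.734 and 0.655) and CDH1 (0.034 and 0.029 to 0.373 and 0.351) were higher at low levels, and MUC16 stayed near 0 in every library. The 5 leukocyte markers summed to at most 1.03 FPKM, with PTPRC the most abundant on polymer X and CD3E at 0 in all 4 libraries, and the 4 endothelial markers summed to at most 0.64, with PECAM1 the most abundant on polymer X. The 5 fibroblast markers summed to 8.52 and 8.87 FPKM on TCP and to 35.6 and 29.9 on polymer X, where LUM led with 24.1 and 19.6. DCN also rose, from 0.025 and 0 to 7.26 and 6.2. COL1A1, nearly all of the sum on TCP, went the other way, from 8.21 and 8.48 to 3.81 and 3.77, and PDGFRA and PDGFRB stayed under 1. The part of these genes in the results below was not tested.

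On polymer X, EPHA2 and EFNB2 were lower and EFNA1 was higher, and the summed level of the ligands was higher while that of the receptors was lower. The test was limma on log2(FPKM + 1) with Benjamini-Hochberg adjustment over 11964 genes, those that reached an FPKM of 1 in 2 or more libraries. A gene was called at an adjusted p under 0.05 and a log2 fold change of at least 1 in either direction, a scale on which the change of a gene with low FPKM comes out too small. Of the 10 genes, 8 passed the filter and were tested, and EPHA4 and EPHB3 were not. Among the 8, 1 was called higher and 2 were called lower, where 10.7% of all tested genes were called higher and 9.45% lower. By adjusted p alone, 3 were higher (EFNA1, EFNA4 and EFNB1) and 3 were lower (EPHA2, EPHB2 and EFNB2), where 37.4% of all tested genes were higher and 43.6% lower. The values of the groups did not overlap for 7 of the 8, nor for 90.4% of all tested genes, and a share near that of all genes is no result about the families. Without TCP replicate 1 the count called higher was 2, without TCP replicate 2 it was 0, and without polymer X replicate 1 it was again 1, with EFNA4 in the place of EFNA1. With 2 libraries a group, the smallest two-sided p of an exact permutation test is 0.333, and the adjusted p-values draw on a spread that limma estimates from all genes together.

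**Figure D1:**
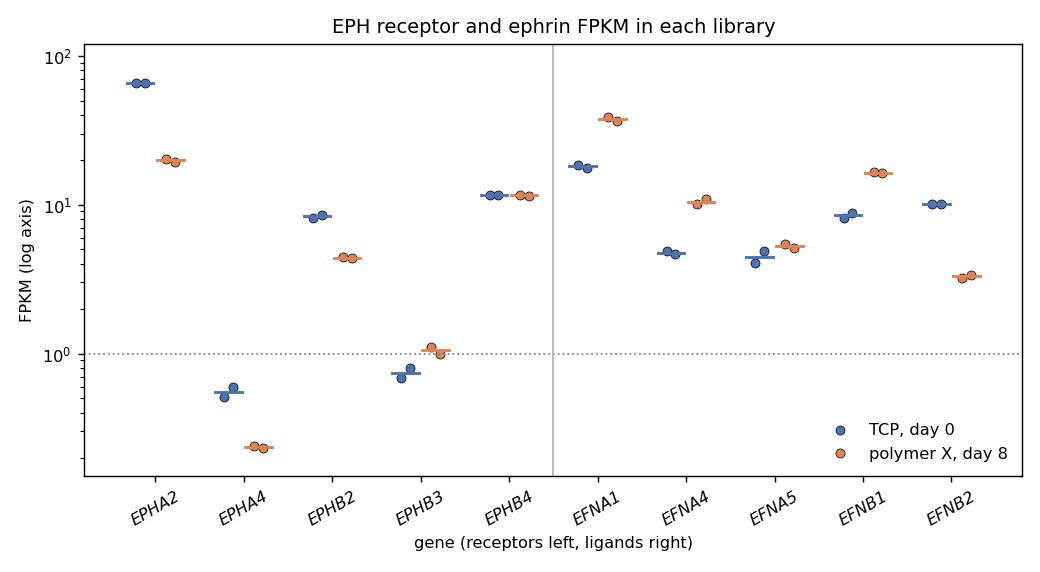
FPKM (log axis) of the 5 receptors (left of the vertical line) and 5 ligands (right) in each library, with 1 point for each of the 2 libraries of TCP (blue) and polymer X (orange), a short line at each mean, and a dotted line at the FPKM of 1 used in the filter. EPHA2 and EFNB2 lie about 3-fold lower on polymer X, EFNA1, EFNA4 and EFNB1 about 2-fold higher, and the points of EPHB4 lie at the same height in both groups.

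The sequences before the transcription start of 4 of these genes are shown because EPHA2 and EFNB2 were called lower, EFNA1 was called higher, and EFNA4 lies in a gene cluster with EFNA1. RefSeq promoters of the GRCh38.p14 build were found for all 10 genes, each with 250 bases before the start and 50 after it. The 250 bases before the start are printed 5′ to 3′ on the strand of the gene, and capitals mark every match on either strand to 6 motifs, which were chosen with results of these data known. The EPHA2 sequence lies at chr1:16156070-16156319 on the minus strand, that of EFNB2 at chr13:106535663-106535912 on the minus strand, that of EFNA1 at chr1:155127626-155127875 on the plus strand and that of EFNA4 at chr1:155063490-155063739 on the plus strand.
EPHA2: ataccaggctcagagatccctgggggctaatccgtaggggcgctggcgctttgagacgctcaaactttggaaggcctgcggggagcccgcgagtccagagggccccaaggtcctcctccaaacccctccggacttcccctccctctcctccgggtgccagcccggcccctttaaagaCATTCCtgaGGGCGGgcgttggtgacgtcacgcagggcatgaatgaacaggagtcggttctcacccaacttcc
EFNB2: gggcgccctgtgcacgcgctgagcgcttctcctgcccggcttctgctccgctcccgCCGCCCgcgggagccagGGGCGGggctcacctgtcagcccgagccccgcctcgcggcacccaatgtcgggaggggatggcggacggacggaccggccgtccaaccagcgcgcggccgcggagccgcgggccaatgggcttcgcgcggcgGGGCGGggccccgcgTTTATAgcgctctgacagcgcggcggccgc
EFNA1: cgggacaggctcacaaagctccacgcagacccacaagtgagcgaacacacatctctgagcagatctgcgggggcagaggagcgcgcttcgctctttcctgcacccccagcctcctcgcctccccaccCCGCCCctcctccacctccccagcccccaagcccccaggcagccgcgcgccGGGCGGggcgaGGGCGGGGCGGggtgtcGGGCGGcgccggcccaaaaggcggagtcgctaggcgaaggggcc
EFNA4: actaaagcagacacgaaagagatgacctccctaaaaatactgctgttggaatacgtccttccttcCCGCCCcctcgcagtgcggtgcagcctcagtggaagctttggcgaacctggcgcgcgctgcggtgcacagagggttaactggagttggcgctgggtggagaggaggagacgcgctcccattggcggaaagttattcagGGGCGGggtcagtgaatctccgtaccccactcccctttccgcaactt

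The motifs were searched in all 300 bases. They were CATTCC, the core bound by TEAD factors, TGANTCA of AP-1, ACGTG, the core of the hypoxia response element, TTCNNNGAA of STAT factors, GGGCGG, the GC box, and TATAAA, the TATA box. Among 22180 promoters of protein-coding genes, 12.2% held the TEAD letters, 6.15% those of AP-1, 23.1% the hypoxia core, 6.79% the STAT letters, 56.3% the GC box and 9.47% the TATA box. EPHA2 held 1 TEAD match, starting at base -73 from the transcription start, and 1 GC box at -64. EFNB2 held 1 TATA match at -30, read on the opposite strand, beside 3 GC boxes. EFNA1 held 5 GC boxes, of which that at -61 and that at -56 share 1 base, and EFNA4 held 2. In these 4 sequences no match to 1 motif overlapped a match to another. No AP-1 or STAT letters were found in the promoters of the 10 genes. The hypoxia core was found in 1 of the 2 promoters of EPHA4, at -60, and in that of EPHB3, at base 14 after the start. In the rest of both families, no promoter was found for EPHA10 and EFNB3, which were not searched. STAT letters were found in this rest for EFNA3 at -229, EPHA3 at -35 and EPHA5 at -143. The hypoxia core was found there for EPHA5, EPHA7 and EPHA8. A match is a description of the letters, and no match says only that these letters are not in this window.

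EPHA2 was the most abundant gene of both families on TCP and fell most among the tested receptors. It lies on the minus strand of chr1:16450832-16482604 in hg19, the build of the deposited table. EPHA2 stood at 65.1 and 66.1 FPKM in TCP replicates 1 and 2 and at 20.2 and 19.4 in polymer X replicates 1 and 2. Both polymer X libraries were far below both TCP libraries, and replicates differed little beside that gap. The means were 65.6 ± 0.653 FPKM on TCP and 19.8 ± 0.519 on polymer X (SD, n = 2 each), a level 3.31-fold lower. On the log2 scale the change was -1.68 (SE 0.0543, limma adjusted p = 8.2e-09), and EPHA2 was called in all 13 alternative fits at the same fold minimum. In bulk RNA, fewer cells of a type and less RNA per cell cannot be told apart. The 3 tested genes with the most similar values over the 4 libraries, by Euclidean distance of log2(FPKM + 1), were CSE1L (0.0516), TOMM40 (0.137) and TOMM22 (0.144). CSE1L, a nuclear export factor, stood at 66.2 and 66.2 FPKM on TCP and at 19.5 and 19.6 on polymer X.

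EPHA4, a receptor that binds both types of ephrin, was scarce. It stood at 0.514 and 0.594 FPKM on TCP and at 0.241 and 0.233 on polymer X, which are about 125, 169, 61 and 60 tags (chr2:222282747-222437078, minus strand). Both polymer X values were below both TCP values, and the mean was 2.34-fold lower. EPHA4 reached an FPKM of 1 in no library and was not tested. Without the filter its log2 change was -0.33 (limma adjusted p = 0.0016), and with its 3 transcripts summed, which share tags, it was -0.64 (adjusted p = 0.00057).

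EPHB2 and EPHB4 were the abundant B-type receptors. EPHB2 (chr1:23037331-23247993, plus strand) stood at 8.13 and 8.57 FPKM on TCP and at 4.42 and 4.36 on polymer X. The groups did not overlap, with means of 8.35 ± 0.306 and 4.39 ± 0.0474 (SD, n = 2 each). The log2 change of EPHB2 was -0.79 (SE 0.0672, limma adjusted p = 3.6e-06), so that it fell by adjusted p but was not called at the fold minimum. EPHB4, the main receptor of EFNB2 in the vasculature, stood at 11.6 and 11.6 FPKM on TCP and at 11.7 and 11.5 on polymer X (chr7:100400187-100425143, minus strand). The groups overlapped, the log2 difference was 0.00 (SE 0.0591, limma adjusted p = 0.97), and over the alternative settings it ranged from -0.01 to 0.09. EPHB3 (chr3:184279587-184300196, plus strand) stood at 0.688 and 0.8 FPKM on TCP and at 1.11 and 0.989 on polymer X, or about 111, 151, 187 and 169 tags. Both polymer X values of EPHB3 were the higher ones, but only 1 library reached an FPKM of 1 and the gene was not tested. Without the filter its log2 change was 0.23 (limma adjusted p = 0.025).

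EFNA1, a ligand of EPHA2, was the most abundant ephrin in every library. EFNA1 stood at 18.5 and 17.6 FPKM on TCP and at 39.1 and 36.4 on polymer X. Both polymer X libraries were above both TCP libraries, with means of 18.0 ± 0.609 and 37.7 ± 1.89 (SD, n = 2 each), a level 2.09-fold higher. The log2 change was 1.02 (SE 0.0607, limma adjusted p = 3.4e-07), close to the fold minimum. The change was 0.99 without TCP replicate 2 and 0.97 without polymer X replicate 1, and in both cases EFNA1 was not called. The 3 tested genes with the most similar values were ARL6IP5 (distance 0.0885), SELENOW (0.148) and DHX40 (0.167). ARL6IP5 stood at 18.9 and 18.1 FPKM on TCP and at 39.3 and 38.3 on polymer X.

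EFNA4 was the ligand just under the threshold. It stood at 4.88 and 4.65 FPKM on TCP and at 10.0 and 10.9 on polymer X. The groups did not overlap, with means of 4.77 ± 0.158 and 10.5 ± 0.609 (SD, n = 2 each), a level 2.2-fold higher. The log2 change of EFNA4 was 0.99 (SE 0.0699, limma adjusted p = 1.1e-06), so that it rose by adjusted p but was not called. EFNA4 was called with a pseudocount of 0.1 (1.12), with a common median (1.03) and with its 3 transcripts summed, which share tags (1.07). Its log2 change was 1.02 without TCP replicate 1 and 1.05 without polymer X replicate 1. Which of EFNA1 and EFNA4 passed the fold minimum thus depended on the setting.

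EFNA5, which also binds EPHB2, differed little between the groups. EFNA5 (chr5:106712590-107006596, minus strand) stood at 4.06 and 4.86 FPKM on TCP and at 5.43 and 5.08 on polymer X. The polymer X values were both above the TCP values, but the nearest pair lay closer together than the TCP libraries did. The log2 difference was 0.20 (SE 0.0863, limma adjusted p = 0.055), which missed the threshold. This difference was 0.095 without TCP replicate 1 and 0.307 without TCP replicate 2, so its size depended on single libraries. The adjusted p of EFNA5 was under 0.05 without TCP replicate 2 (0.016), with a common median (0.029) and with a replicate block (0.03), and over all alternatives it ranged from 0.016 to 0.4.

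The B-type ligands EFNB1 and EFNB2 went in opposite directions. EFNB1 (chrX:68048840-68062006, plus strand) stood at 8.13 and 8.83 FPKM on TCP and at 16.4 and 16.2 on polymer X, with means of 8.48 ± 0.492 and 16.3 ± 0.177 (SD, n = 2 each). EFNB2 (chr13:107142079-107187388, minus strand) stood at 10.0 and 10.2 FPKM on TCP and at 3.2 and 3.38 on polymer X, with means of 10.1 ± 0.0969 and 3.29 ± 0.13 (SD, n = 2 each). Neither gene had overlapping groups, and EFNB2 was the more abundant of the pair on TCP and the less abundant on polymer X. EFNB1 was 1.93-fold higher, a log2 change of 0.87 (SE 0.064, limma adjusted p = 1.4e-06), below the fold minimum. EFNB2 was 3.07-fold lower, a log2 change of -1.37 (SE 0.0673, limma adjusted p = 1e-07), and was called in all 13 alternative fits at the same fold minimum. The ratio of EFNB1 to EFNB2 was 0.811 and 0.869 on TCP and 5.14 and 4.79 on polymer X. With EPHB4 level, the ratio of EFNB2 to EPHB4 went from 0.865 and 0.88 on TCP to 0.274 and 0.294 on polymer X.

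**Figure D2:**
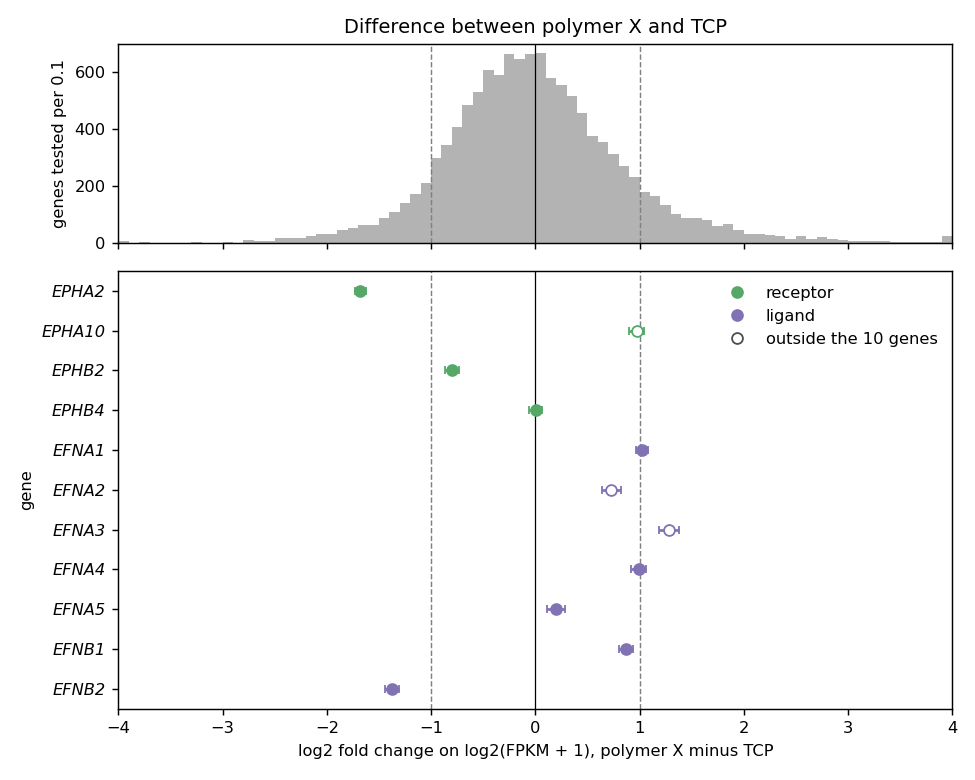
Log2 fold change on log2(FPKM + 1), polymer X minus TCP, for the 11964 genes tested (top, genes per bin of 0.1, with genes beyond the axis in the end bins) and for the 11 tested genes of both families (bottom, bars are the SE, open points are genes outside the 10). Dashed lines mark the fold minimum of 1, at which EFNA1 (1.02) and EFNA4 (0.99) lie on either side, while EPHA2 (-1.68) and EFNB2 (-1.37) lie well beyond it.

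The rest of both families gave 12 more genes, 9 receptors and 3 ligands, of which EPHA10, EFNA2 and EFNA3 were tested. EPHA10, a receptor without kinase activity, stood at 3.39 and 3.19 FPKM on TCP and at 7.63 and 7.23 on polymer X, a log2 change of 0.97 (limma adjusted p = 1.3e-06). It was not called, although it was with a pseudocount of 0.1 (1.15), with a common median (1.01), without TCP replicate 1 (1.01) and without polymer X replicate 2 (1.01), and it was the tested receptor that rose. EFNA3 was called higher, from 3.7 and 3.6 FPKM on TCP to 9.22 and 11.5 on polymer X, a log2 change of 1.28 (limma adjusted p = 1.4e-06). EFNA2 stood at 1.5 and 1.92 FPKM on TCP and at 3.45 and 3.5 on polymer X, a log2 change of 0.73 (limma adjusted p = 5.3e-05), and was not called. All values of these 3 genes on polymer X were above those on TCP. EPHB6, the other receptor without kinase activity, was not tested, and stood at 0.07 and 0.106 FPKM on TCP and at 0.522 and 0.543 on polymer X, or about 9, 16, 70 and 74 tags. EFNB3 was not tested either, and stood at 0.032 and 0.062 FPKM on TCP and at 0.708 and 0.849 on polymer X, or about 4, 9, 91 and 111 tags. Among the family genes with a mean above 0 on TCP, EPHB6 (6.05) and EFNB3 (16.6) had the widest ratio between group means, at levels the filter removed. EPHA3 and EPHA5 stood at 0 in both TCP libraries and have no such ratio. EPHA1, EPHA3, EPHA5, EPHA6, EPHA7, EPHA8 and EPHB1 stayed under 0.5 FPKM in every library, and the span of EPHA1 touches that of ZYX on the opposite strand, so that tags there cannot be assigned by strand.

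The order of the levels was not the same in the groups. On TCP the mean FPKM ran from EPHA2 (65.6) through EFNA1 (18.0), EPHB4 (11.6), EFNB2 (10.1), EFNB1 (8.48) and EPHB2 (8.35) to EFNA4 (4.77), EFNA5 (4.46), EFNA3 (3.65) and EPHA10 (3.29). On polymer X it ran from EFNA1 (37.7) through EPHA2 (19.8), EFNB1 (16.3), EPHB4 (11.6), EFNA4 (10.5), EFNA3 (10.4) and EPHA10 (7.43) to EFNA5 (5.26), EPHB2 (4.39), EFNA2 (3.47) and EFNB2 (3.29). Neighbours whose libraries overlapped were EFNB1 and EPHB2 as well as EFNA4 and EFNA5 on TCP, and EFNA4 and EFNA3 on polymer X. EFNA1 and EPHA2 thus exchanged the first place, and EFNB2 went from the fourth place among the 22 genes to the eleventh.

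Ligands and receptors were then compared as sums of FPKM over the whole families. The 14 receptors summed to 90.1 and 91.5 FPKM on TCP and to 46.7 and 45.0 on polymer X, whereas the 8 ligands summed to 50.8 and 51.7 on TCP and to 87.6 and 87.8 on polymer X. Receptors outweighed ligands in both TCP libraries and ligands outweighed receptors in both polymer X libraries. The ratio of ligands to receptors was 0.564 and 0.565 on TCP and 1.88 and 1.95 on polymer X, a log2 change of 1.76. EPHA2 made up 72.3% and 72.2% of the receptor sum on TCP and 43.2% and 43.2% on polymer X. The other 13 receptors together held 25.0 and 25.4 FPKM on TCP and 26.5 and 25.6 on polymer X. The difference in the receptor sum thus lay in EPHA2. Within the 13 the genes did not all stay level. EPHB2 had means of 8.35 FPKM on TCP and 4.39 on polymer X, and EPHA10 of 3.29 and 7.43, changes that nearly met. With EPHA2 left out, a step chosen after seeing the data, the log2 change of the ratio was 0.73.

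By class, the difference lay mostly on the A side. The A-type ephrins summed to 32.6 and 32.6 FPKM on TCP and to 67.2 and 67.4 on polymer X, and the EPHA receptors to 69.5 and 70.3 on TCP and to 28.6 and 27.4 on polymer X. Both A-type sums thus differed far more between groups than between replicates, and in opposite directions. The fall of the EPHA sum lay in EPHA2, with means of 65.6 FPKM on TCP and 19.8 on polymer X. EPHA10, the other tested EPHA receptor, was higher, with means of 3.29 and 7.43. The B-type ephrins summed to 18.2 and 19.1 FPKM on TCP and to 20.4 and 20.4 on polymer X, a small difference in which the rise of EFNB1 and the fall of EFNB2 nearly met. The EPHB receptors summed to 20.6 and 21.2 FPKM on TCP and to 18.0 and 17.7 on polymer X. Gene by gene, the median log2 change was -0.79 over the 3 tested receptors of the 10 and 0.87 over the 5 ligands, beside -0.06 over all tested genes. With so few genes these medians are the values of EPHB2 and EFNB1. The receptors ran from -1.68 (EPHA2) to 0.00 (EPHB4) and the ligands from -1.37 (EFNB2) to 1.02 (EFNA1). With no filter on low values the 5 receptors had a median of -0.33 and the 5 ligands one of 0.87, beside 0.01 over 16883 genes. Over the whole families the medians were -0.40 for the 4 tested receptors and 0.87 for the 7 tested ligands, and with no filter 0.01 for the 14 receptors and 0.82 for the 8 ligands. Of the 14 receptors, 7 stayed under 0.5 FPKM in every library, where a pseudocount of 1 holds the log2 change near 0, so that the median of 0.01 says little of the family.

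**Figure D3:**
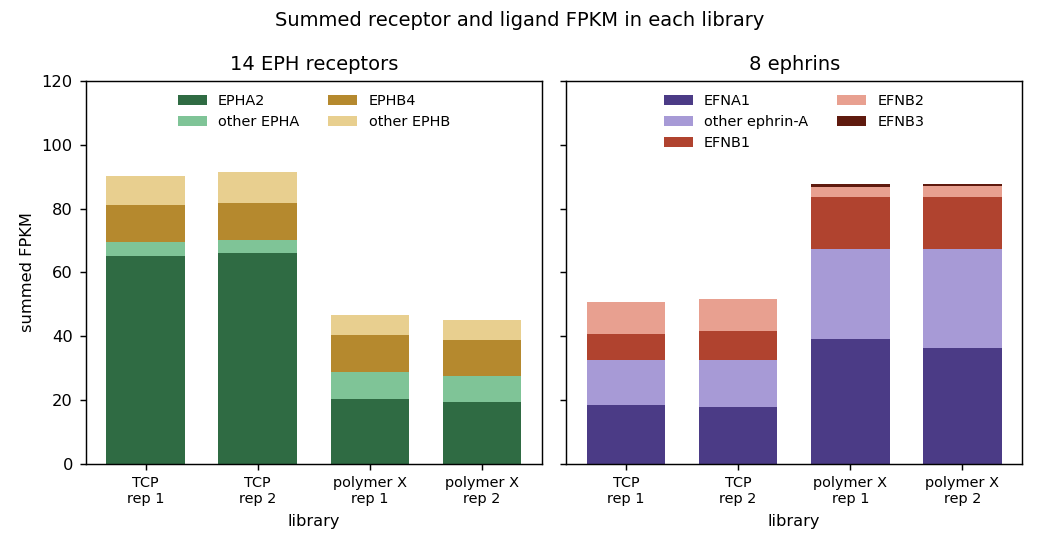
Summed FPKM of the 14 EPH receptors (left) and the 8 ephrins (right) in each of the 4 libraries, with the parts of single genes and gene classes in colors. The receptor bars stand at 90.1 and 91.5 on TCP against 46.7 and 45.0 on polymer X, with EPHA2 as the part that differs most, and the ligand bars stand at 50.8 and 51.7 against 87.6 and 87.8.

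EFNA4, EFNA3 and EFNA1 share a position that played no part in their choice as family genes, although the EFNA4 promoter was shown because of it. They lie next to one another on the plus strand of chromosome 1 in hg19, EFNA4 at chr1:155036213-155042029, EFNA3 at chr1:155051348-155060014 and EFNA1 at chr1:155100349-155107386, a span of 71174 bases. The log2 changes of the 3 were 0.99, 1.28 and 1.02. Within 100000 bases on either side 15 other genes of the table are counted here, in a window chosen after the values were seen, and 11 of them were tested. Of these 11, 2 were called higher, MUC1 (log2 change 2.63) and THBS3 (2.30), and 1 was called lower, CKS1B (-1.72), beside 10.7% and 9.45% of all tested genes. ADAM15, the tested gene nearest to EFNA4, stood at 13.3 and 14.0 FPKM on TCP and at 11.4 and 10.5 on polymer X, a log2 change of -0.29 (limma adjusted p = 0.0028). SLC50A1, the nearest to EFNA1, stood at 8.26 and 8.41 FPKM on TCP and at 9.94 and 10.3 on polymer X, a log2 change of 0.25 (limma adjusted p = 0.0044). The tested genes that flank the cluster thus moved less than the 3 ephrins. Farther out, MUC1, THBS3 and CKS1B moved more. Of the other tested genes, ZBTB7B (0.89), FLAD1 (-0.73) and DPM3 (0.31) passed by adjusted p without being called, and SHC1 (0.11), KRTCAP2 (0.11) and MTX1 (-0.02) did not pass.

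**Figure D4:**
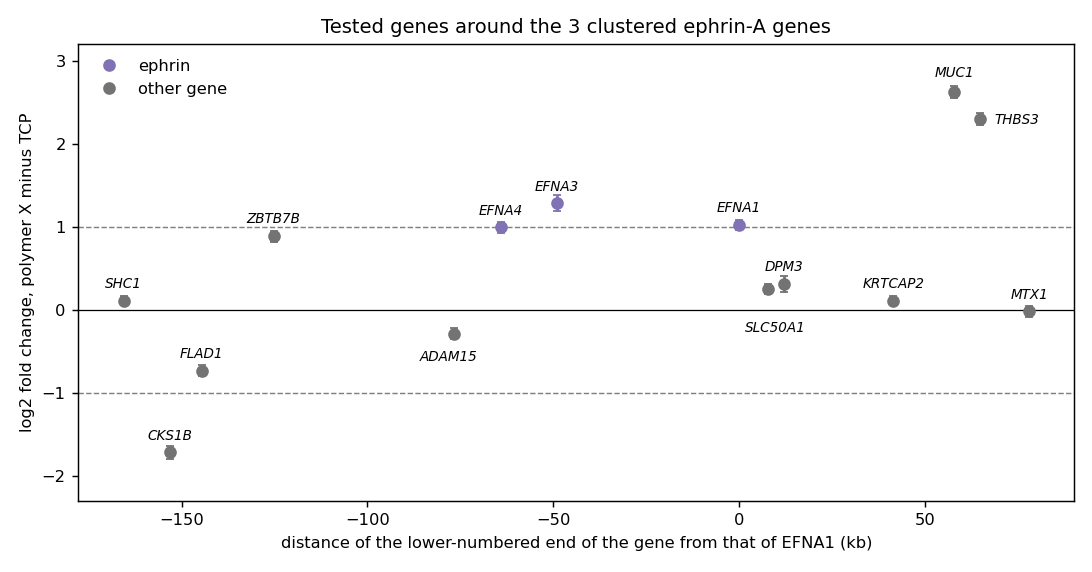
Log2 fold change (polymer X minus TCP, bars are the SE) of 14 tested genes in and around the cluster, against the distance in kb between the lower-numbered end of each gene and that of EFNA1. The 3 ephrins (purple) lie near the upper dashed line at 1, with ADAM15 (-0.29) and SLC50A1 (0.25) close to 0 beside them.

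Genes that carry the signal were described in 4 lists written from general knowledge, 61 genes of which 52 were tested. Together, 3 were called higher and 1 lower, beside 10.7% and 9.45% of all tested genes, and without TCP replicate 2 the count lower was 2. By adjusted p alone 22 were higher, 18 lower and 12 neither, where 37.4% of all tested genes were higher and 43.6% lower, with a median log2 change of 0.10, beside -0.06 over all tested genes. Of the adaptors and kinases of forward signalling, 17 of 20 were tested, 6 were higher and 6 lower by adjusted p, and the median log2 change was 0.11. GRB7, an adaptor with an SH2 domain, was called higher, from 0.536 and 0.383 FPKM on TCP to 5.64 and 5.22 on polymer X, a log2 change of 2.14 (limma adjusted p = 3e-08). GRB7 was under 1 FPKM on TCP and passed the filter only through polymer X, so that a call in the other direction was not open to it. RASA1, a GTPase-activating protein for Ras that docks on EPHB2, was called lower, from 16.6 and 16.5 FPKM to 6.4 and 6.64, a log2 change of -1.22 (limma adjusted p = 1.1e-07). In both genes the groups lay far apart beside the gap between replicates.

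Of 12 partners of reverse signalling, 10 were tested, 8 were higher and 1 lower by adjusted p, beside 37.4% and 43.6% of all tested genes, and the median log2 change was 0.26. Among the 8, PARD6B was under 1 FPKM on TCP (0.966 and 0.85) and passed the filter only through polymer X (1.69 and 1.56), so that being lower was not open to it. PICK1, a PDZ protein that binds B-type ephrins and EPH receptors, was called higher, from 3.97 and 3.92 FPKM on TCP to 9.34 and 9.98 on polymer X (log2 change 1.11, limma adjusted p = 4.3e-07). No gene of this list was called lower by limma, and 1 was lower at an unadjusted p under 0.05. Of 17 genes of shedding and turnover, 14 were tested, 7 were higher and 3 lower by adjusted p, and the median was 0.14. Among the 7, RHBDL2 (1.15 and 0.76 FPKM on TCP, 1.43 and 2.02 on polymer X) would not have passed the filter on its TCP libraries alone. MMP2, a secreted matrix metalloproteinase, was called higher, from 21.2 and 22.0 FPKM on TCP to 103.8 and 104.7 on polymer X (log2 change 2.22, limma adjusted p = 2.1e-09). ADAM10, the protease known to cut ephrin-A ligands and named here after its values were seen, stood at 41.5 and 42.1 FPKM on TCP and at 36.0 and 35.7 on polymer X (log2 change -0.22, limma adjusted p = 0.004). ADAM17 went the other way, from 12.6 and 14.1 FPKM to 18.6 and 18.8 (log2 change 0.46, limma adjusted p = 0.00014). No gene of this list was called lower by limma, with 3 lower at an unadjusted p under 0.05. Of 12 phosphatases and serine kinases that act on EPH proteins, 11 were tested, and by adjusted p 1 was higher and 8 were lower, beside the same 37.4% and 43.6%, with a median of -0.48. None of the 11 was called in either direction by limma, with 1 higher and 8 lower at an unadjusted p under 0.05.

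**Figure D5:**
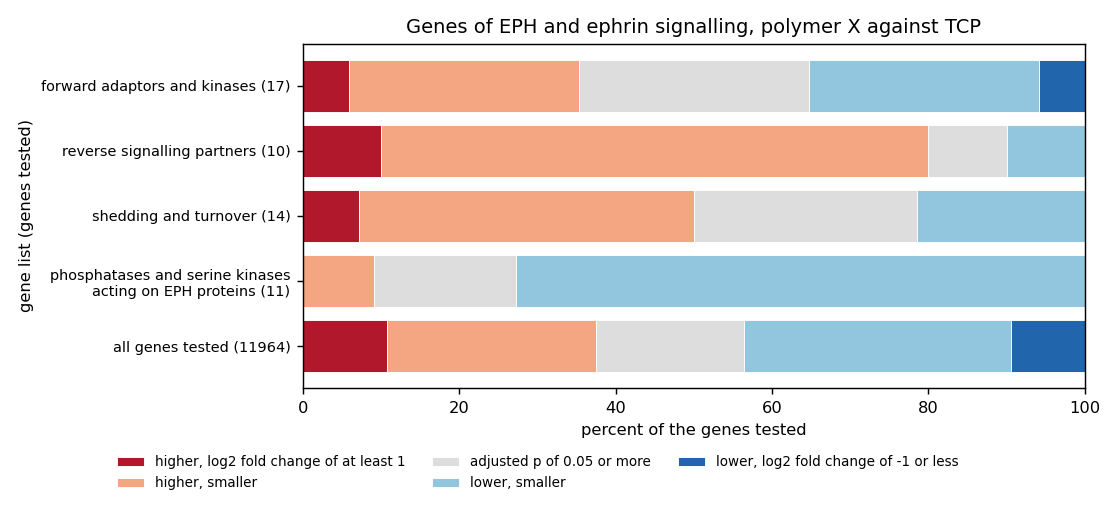
Percent of the tested genes of each signalling list, and of all 11964 tested genes, whose adjusted p was under 0.05 and that were higher (red) or lower (blue) on polymer X, in dark colors where the log2 fold change reached 1 in size, with the number tested in parentheses. The list of reverse signalling partners holds 8 of 10 genes in red, 1 of them dark and 1 (PARD6B) tested only through its level on polymer X, and that of phosphatases and serine kinases holds 8 of 11 in blue, all in the light shade.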

How the data were processed

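The deposited FPKM values of 50078 RefSeq transcripts (hg19) came from HOMER, which the authors ran on exons without use of strand. The submitters' processing notes also name STAR 2.4.0 and DESeq. The tags behind each library were recovered from the steps of low values (100% of 2521 to 2702 values within 0.1 of a whole number). Whether tags were single reads or mates of a pair is not given in the sources used here. Tests used limma 3.58.1 (R 4.3.3), a pseudocount of 1, a trend of variance with mean and no replicate block. Plots were drawn with matplotlib 3.10.9. Named genes were the 10 genes, the rest of both families, up to 3 called genes in each direction of each list, 3 genes of most similar values for EFNA1 and EPHA2, markers, and, picked after their values were seen, ADAM10, ADAM17, PARD6B, RHBDL2 and genes near the ephrin-A cluster. The genes and lists were chosen with earlier results of these data known, and 1 list and 1 gene are not reported here. Alternatives were another pseudocount, other filters, scalings, transcripts and fold minimums, a replicate block, no trend, and each library left out.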

Additional observations from a re-analysis of the deposited data

How the results depend on the processing

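Of 192 alternative fits of 15 single genes, 181 kept the call of the gene, 2 lost it, 9 gained it and 0 turned a called direction. The 2 that lost it were of EFNA1, and the 9 that gained it were of EFNA4 and EPHA10. The 15 were the tested genes of both families and GRB7, RASA1, PICK1 and MMP2, the signalling genes that were called. Genes taken because they were called could not gain a call, and the other signalling genes are not in this count. The count of all genes called higher was 1285, and it was 702 with a mean FPKM of at least 5 (fewer genes tested), 4477 with no fold minimum and 281 with a minimum of 2. The count called lower was 1131, and it was 5212 with no fold minimum and 150 with a minimum of 2. Of the 10 genes, 1 was called higher, and it was 2 with a pseudocount of 0.1, 2 with a common median, 2 with transcripts summed, 3 with no fold minimum and 0 with a minimum of 2, and from 0 to 2 with a library left out. The 2 called lower became 0 with a minimum of 2. Over both families, 2 were called higher, and it was 4 with a pseudocount of 0.1, 4 with a common median, 4 with transcripts summed, 6 with no fold minimum and 0 with a minimum of 2, and from 1 to 4 with a library left out. The 2 of both families called lower became 0 with a minimum of 2. Of the signalling genes, 3 were called higher, and it was 22 with no fold minimum. The 1 called lower became 3 with a pseudocount of 0.1, 2 with transcripts summed, 18 with no fold minimum and 0 with a minimum of 2, and from 1 to 2 with a library left out. For the signalling genes, both other fold minimums were chosen after seeing the data. The median log2 change of the tested receptors, -0.79, was -0.91 with a pseudocount of 0.1, -0.33 with no filter, -0.83 with quantile normalization, -0.76 with a common median and -0.77 with transcripts summed, and from -0.83 to -0.76 with a library left out. The median of the ligands, 0.87, stayed within the spread between replicates under each alternative. The log2 change of the ratio of ligands to receptors, 1.76, was 2.07 with transcripts summed, 0.73 without EPHA2, 1.57 without EFNA1 and 1.90 over the 10 genes alone, all chosen after seeing the data. The cause of these shifts was not tested beyond the genes or settings named. Where a library was left out, the lone library of its group was assumed to vary like the other group. The replicate numbers were shared by both groups, with a correlation of 0.0927 between the deviations of same-numbered libraries, and the samples share only a number. With a replicate block 1285 genes were called higher and 1131 lower, of the 10 genes 1 and 2, and the adjusted p of EFNA5 was 0.03. Counting error limits EPHA4, EPHB3, EPHB6 and EFNB3, which rest on few tags. It also limits EFNA2, with about 123 and 184 tags on TCP and 295 and 304 on polymer X.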

Other observations

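GRB7, the adaptor that was called higher, lies beside ERBB2 on chromosome 17. ERBB2 stood at 198 and 206 FPKM on TCP and at 913 and 860 on polymer X, and GRB7 at 0.536 and 0.383 on TCP and at 5.64 and 5.22 on polymer X. Both genes were higher in both polymer X libraries, at levels far apart.

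Among the genes around the ephrin-A cluster, MUC1, a membrane mucin, stood at 1.71 and 1.79 FPKM on TCP and at 15.3 and 16.7 on polymer X (limma adjusted p = 3.8e-09). THBS3, a secreted thrombospondin, stood at 1.84 and 1.77 FPKM on TCP and at 12.2 and 13.4 on polymer X (limma adjusted p = 8.2e-09). CKS1B, a subunit of cyclin-dependent kinases, stood at 66.9 and 58.0 FPKM on TCP and at 18.8 and 17.7 on polymer X (limma adjusted p = 4.4e-08). The groups of these 3 genes did not overlap, and all 3 were named after their values were seen.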
